A study of Mus musculus with 15 samples.

Results

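The rod transducin genes are Gnat1, Gnb1 and Gngt1, which encode the alpha, beta and gamma subunits of the heterotrimeric G protein of rod photoreceptors. All peaks that the authors' annotation assigns to these symbols were taken, which gave 7 of 8996 quantified peaks and 3 of 6860 genes with a peak: 2 peaks at Gnat1, 4 at Gnb1 and 1 at Gngt1. The rule goes by gene symbol and uses no measured value. Each of the 7 peaks was, however, called in at least 1 of the deposited peak lists, which do depend on signal. Binding of the transcription factor NRL was measured by CUT&RUN, where antibody-guided protein A-MNase cuts the DNA beside a chromatin protein in permeabilized cells and the released fragments are sequenced. The source was dissociated whole retina from the C57BL/6J strain, taken on postnatal day 2 (P2), 4 (P4), 10 (P10) or 28 (P28), with an anti-NRL antibody and 250000 cells per experiment, and age was the only factor that differed between the groups. No genotype or treatment other than age is named in the labels, and the groups have no control antibody among the libraries used here. Of 15 labelled libraries, 8 had a column in the quantitation table, 2 per age, and the other 7 were not analysed here. Separate animals behind the libraries of an age are not stated in the labels, and p-values therefore reflect variation among these libraries alone, which may be technical.

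In rods, light activates the visual pigment, which makes the transducin alpha subunit exchange its bound nucleotide and leave the beta-gamma pair. The freed alpha subunit switches on the cyclic GMP phosphodiesterase, and the cation channels of the outer segment close. Gnat1 and Gngt1 are used mainly by rods, whereas Gnb1 is also used by many other cell types. NRL is a basic leucine zipper factor of the Maf family that rod precursors need to become rods, and rods are added and mature in the mouse retina during the ages studied. In whole retina, a larger share of rods among the cells and more binding per rod cannot be told apart.

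The 7 peaks lay at different kinds of positions (coordinates are those of GRCm38.p6, 1-based). The Gnat1 promoter peak, chr9:107679577-107680076, overlapped the RefSeq 5′ end of this minus-strand gene at 107679634. The Gnat1 intragenic peak, chr9:107678343-107678616, lay 1018 bp inside the gene, where the authors' annotation places the promoter of another transcript. At Gnb1, which is on the plus strand, no peak overlapped the RefSeq 5′ end at 155491300. The strongest Gnb1 peak, chr4:155522186-155522664, lay 30886 bp downstream of that end, at the start of another annotated transcript, and is called the internal promoter peak here. The other Gnb1 peaks were intronic: 1 in intron 5 at chr4:155538179-155538460, and a stronger and a weaker one in the first intron at chr4:155494830-155495263 and chr4:155495943-155496094. The Gngt1 promoter peak, chr6:3993737-3994048, overlapped a start annotated by the authors and lay 4655 bp downstream of the outermost RefSeq 5′ end.

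RefSeq promoter windows, 250 bases before to 50 after a start, were at hand for Gngt1 and Gnb1 and are shown because the first is occupied by a peak and the second is not. Capitals mark motif matches.
Gngt1, chr6:3993758-3994057, plus strand: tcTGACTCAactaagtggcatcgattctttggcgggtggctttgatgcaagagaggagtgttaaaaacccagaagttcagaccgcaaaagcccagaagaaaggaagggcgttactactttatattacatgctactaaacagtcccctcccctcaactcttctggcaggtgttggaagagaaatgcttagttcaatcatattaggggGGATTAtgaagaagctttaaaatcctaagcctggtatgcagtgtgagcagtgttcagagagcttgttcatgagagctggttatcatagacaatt
Gnb1, chr4:155491111-155491410, plus strand: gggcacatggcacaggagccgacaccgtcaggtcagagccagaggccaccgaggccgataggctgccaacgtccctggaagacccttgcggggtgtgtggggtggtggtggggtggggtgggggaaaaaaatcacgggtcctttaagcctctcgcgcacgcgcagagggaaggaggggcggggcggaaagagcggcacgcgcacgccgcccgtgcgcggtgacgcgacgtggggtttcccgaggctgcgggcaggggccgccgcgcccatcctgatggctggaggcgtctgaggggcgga
The Gngt1 window shared 291 bp with the Gngt1 peak and had 43.7% GC, whereas the Gnb1 window had 70.3% GC, shared no base with a Gnb1 peak and lay 3420 bp from the nearest one. The median window had 52.7% GC. Both strands were searched for 4 motifs: the Maf half-site TGCTGA, the AP-1 site TGANTCA, the cyclic AMP response element (CRE) TGACGTCA and the CRX site TAATCC. The Gngt1 window held an AP-1 match, TGACTCA, 248 bases upstream of the start, and a CRX match read on the other strand, GGATTA, 44 bases upstream. Relative to the P10 summit of the peak, the CRX match began 34 bp downstream and the AP-1 match at position -170. The Gnb1 window held no match to any of the 4. Over 32851 RefSeq windows the Maf half-site was found in 19.5%, the AP-1 site in 7.81%, the CRE in 1.79% and the CRX site in 7.06%. A match describes the letters of the window and is not evidence of a bound site.

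The deposited peak lists, 1 per age, held different numbers of the transducin peaks. The lists had 1221, 3161, 7520 and 3482 peaks from the youngest to the oldest age. The P2 list overlapped 1 of the 7 transducin peaks, the P4 list 3, the P10 list 7 and the P28 list 4. These counts followed the order of list length. The share of all 8996 quantified peaks in each list was not computed, so the counts cannot be read as a trait of the transducin peaks. The Gnb1 internal promoter was in all 4 lists and was the only member in the P2 list, where its authors' signal ranked 26. It ranked 39 in the P4 list, 89 in the P10 list and 22 in the P28 list. The Gnat1 promoter was absent from the P2 list and ranked 477, 42 and 16 in those at P4, P10 and P28. Gnb1 intron 5 was in the P10 and P28 lists at ranks 259 and 196, and the Gnat1 intragenic peak was in the same lists at ranks 4999 and 3142. The Gnb1 first-intron peak was in the P4 and P10 lists, and the weak first-intron peak and the Gngt1 promoter were in the P10 list only. Ranks come from lists of different length and show no change by themselves. Summits stayed in place: those of the Gnat1 promoter fell within 1 bp at 3 ages, 159 to 160 bp upstream of the RefSeq 5′ end, and those of the Gnb1 internal promoter within 22 bp at 4 ages.

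**Figure D1:**
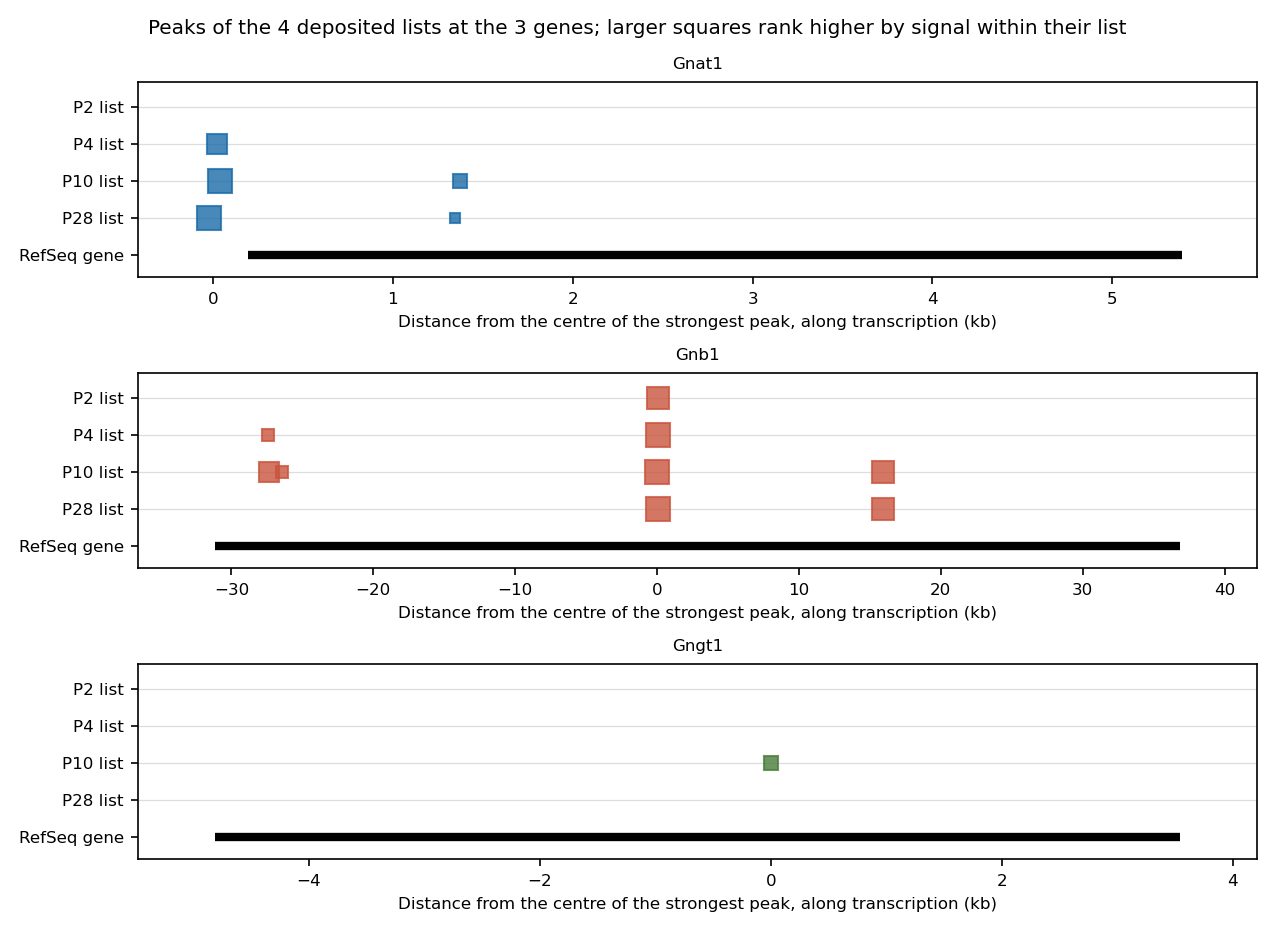
Peaks of the 4 deposited lists at Gnat1, Gnb1 and Gngt1, plotted by distance in kb from the centre of the gene's strongest peak along the direction of transcription, with 1 line per list and the RefSeq gene as a bar. Square size gives the percentile of the authors' signal within its list and not the width of a peak; the Gnb1 internal promoter at 0 is the only member in the P2 list.

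Signal is given as RPKM, reads per kilobase of peak and per unit of library scale, rebuilt with each peak's own width because the deposited values used the widths of other peaks in all columns but the first. Reads inside all peaks ranged from 49430 to 227692 per library, and the share of the library scale inside peaks was 0.986 and 0.940% in the P2 libraries, 1.09 and 2.15% in the P4 libraries, 3.08 and 2.84% in the P10 libraries, and 1.52 and 1.51% in the P28 libraries. P4 replicates 3 and 4 therefore differed from each other by this share more than the libraries of any other age. Replicate pairs correlated across peaks with r of 0.60, 0.74, 0.89 and 0.71 from the youngest to the oldest age.

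Gnat1, the alpha subunit gene, had signal at 2 peaks that were low at P2 and P4 and high at P10 and P28. Its promoter peak held 2.77 and 0.761 RPKM in the P2 libraries (11 and 2 reads), 4.32 and 11.7 in the P4 libraries (17 and 41 reads), 72.8 and 48.2 in the P10 libraries (231 and 193 reads), and 61.7 and 78.6 in the P28 libraries (199 and 240 reads). The means were 1.77 ± 1.42, 8.01 ± 5.23, 60.5 ± 17.4 and 70.1 ± 12.0 RPKM (SD, n = 2 each). All P10 and P28 libraries lay above all P2 and P4 libraries, and the P10 and P28 libraries overlapped. The intragenic peak held 2.76 and 2.08 RPKM in the P2 libraries, 2.32 and 3.13 in the P4 libraries, 24.7 and 15.5 in the P10 libraries, and 25.4 and 25.1 in the P28 libraries. It had 3 to 6 reads in each P2 and P4 library, so its 2 early ages could not be separated at this depth.

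Gnb1, the beta subunit gene, carried the strongest member peak. The internal promoter, 13th of 8996 peaks by mean signal, held 15.3 and 19.9 RPKM in the P2 libraries, 23.9 and 62.0 in the P4 libraries, 169 and 121 in the P10 libraries, and 71.5 and 79.0 in the P28 libraries, from 50 to 515 reads per library. The P10 libraries were above all others, and the libraries of P28 were above those of P2 and P4. Intron 5 held 0.447 and 1.35 RPKM in the P2 libraries (1 and 2 reads), 1.80 and 3.54 in the P4 libraries, 49.2 and 24.3 in the P10 libraries, and 20.3 and 19.7 in the P28 libraries. Its P2 and P4 libraries held 1 to 7 reads, while the internal promoter had 50 to 208 in the same libraries. The first-intron peak averaged 1.60 ± 0.214, 4.94 ± 3.26, 16.7 ± 6.15 and 6.60 ± 0.260 RPKM at the 4 ages (SD, n = 2 each). The weak first-intron peak had 0 reads in both P2 libraries, 2 in each P4 library, 9 and 13 in the P10 libraries, and 7 and 5 in the P28 libraries.

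Gngt1, the gamma subunit gene, had the weakest strongest peak of the 3 genes by the mean over all 8 libraries. Its promoter peak held 2.02 and 1.83 RPKM in the P2 libraries, 2.03 and 2.29 in the P4 libraries, 8.08 and 5.60 in the P10 libraries, and 4.96 and 4.20 in the P28 libraries, from 3 to 16 reads per library. By mean signal it ranked 4796th of 8996 peaks. By the mean of the peak that was strongest over all 8 libraries, the order was Gnb1, Gngt1, Gnat1 at P2 and Gnb1, Gnat1, Gngt1 at P4, P10 and P28. At P2 the Gnat1 promoter was not the stronger Gnat1 peak, and the intragenic peak, at 2.42 ± 0.477 RPKM, lay above Gngt1. The libraries of the Gngt1 and Gnat1 promoters overlapped at P2, and those of the Gnat1 promoter and the Gnb1 internal promoter overlapped at P28.

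**Figure D2:**
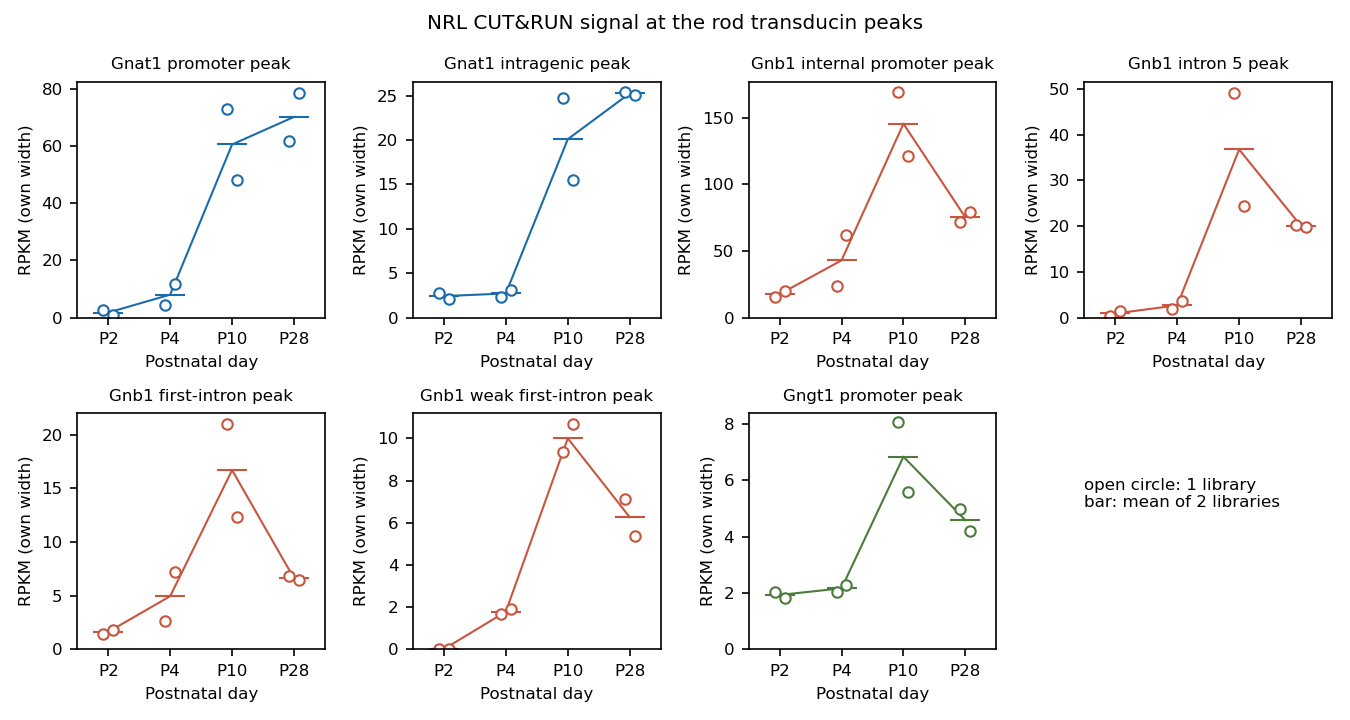
NRL signal in RPKM (linear axes starting at 0, a different scale in each panel) at the 7 transducin peaks by postnatal age. Open circles are the 2 libraries of an age and bars their mean; both Gnat1 peaks had their highest mean at P28, at 70.1 and 25.3 RPKM, and the 5 peaks of Gnb1 and Gngt1 had theirs at P10.

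A moderated F test for any difference between ages, over all 8996 peaks, called all 7 transducin peaks, against 45.9% of all peaks. The adjusted p ran from 1.2e-05 for the Gnat1 promoter to 0.037 for Gngt1 (limma with Benjamini-Hochberg adjustment, here and below). The Gngt1 call held in 4 of 15 alternative settings, and the range of its adjusted p over them was 0.015 to 0.45. After centring or scaling to the reads inside peaks the Gnb1 first-intron call was also lost (adjusted p = 0.051 and 0.068), which left 5 of the 7.

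P4 against P2 asked whether signal differed at the earliest step. None of the 7 peaks passed limma's test and 0% of all peaks did; 2 of the 7 and 1365 of the 8996 peaks had an unadjusted p under 0.05. A limma-voom fit to the rebuilt reads called 0 members and 8 peaks in all. In 6 of the 7 peaks both P4 libraries were above both P2 libraries, as in 40.1% of all peaks, and in none were they both below, as in 3.91%. The Gnat1 promoter had 8.01 ± 5.23 RPKM at P4 and 1.77 ± 1.42 at P2 (log2 change 1.67 ± 0.58 SE, adjusted p = 0.20), and the Gnb1 internal promoter 42.9 ± 27.0 at P4 and 17.6 ± 3.26 at P2 (1.10 ± 0.56, adjusted p = 0.34). For Gnb1 intron 5, 11 reads at P4 against 3 at P2 gave a ratio of scaled reads of 3.25 (exact 95% interval 0.859 to 18.2; such intervals and read floors cover counting error only). Without P4 replicate 3, 3 members were called higher at P4: the Gnat1 promoter, the Gnb1 internal promoter and the Gnb1 first-intron peak, while 829 of all 8996 peaks were called higher in that fit. The sign turned at the Gnat1 intragenic peak and at Gngt1 with libraries centred on their median (-0.35 and -0.36) and with scaling to the reads inside peaks (-0.38 and -0.35).

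P10 against P4 compared the second pair of neighbouring ages. NRL signal rose at 6 of the 7 transducin peaks and fell at none, against 15.6% of all peaks higher and 1.51% lower. All 7 peaks were in the P10 list and 3 in the P4 list. Some were called at P10 only, so a rise to P10 was partly favoured by how peaks were chosen. Both P10 libraries were above both P4 libraries in all 7, as in 58.9% of all peaks (both below in 6.31%). The median log2 change of the 7 was 1.98, against 0.73 over all peaks. Gnb1 intron 5 rose, with 36.8 ± 17.6 RPKM at P10 and 2.67 ± 1.23 at P4 (3.32 ± 0.55, adjusted p = 0.00061). The Gnat1 promoter averaged 60.5 ± 17.4 RPKM at P10, against 8.01 ± 5.23 at P4 (2.87 ± 0.58, adjusted p = 0.0026), and the Gnat1 intragenic peak 20.1 ± 6.54 at P10 and 2.72 ± 0.573 at P4 (2.48 ± 0.53, adjusted p = 0.0037). The Gnb1 internal promoter had 145 ± 34.0 at P10 and 42.9 ± 27.0 at P4, with a smaller log2 change of 1.87 ± 0.56 (adjusted p = 0.025). The 2 first-intron peaks of Gnb1 also rose, by 1.65 (adjusted p = 0.036) and 1.98 (adjusted p = 0.0051). Gngt1 had 6.84 ± 1.76 RPKM at P10 and 2.16 ± 0.179 at P4 and missed the threshold (1.29 ± 0.46, adjusted p = 0.054). With libraries centred on their median or scaled to the reads inside peaks, both Gnat1 peaks and Gnb1 intron 5 passed and the other 4 peaks did not. Of all 8996 peaks, 259 and 100 were called higher under these scalings, in that order. With a pseudocount of 0.1 no member was called and 8 of all 8996 peaks were, although the log2 changes were no smaller for the Gnat1 promoter (3.04) and Gnb1 intron 5 (3.72). Of the 6 calls, 3 were left without P4 replicate 3 or without P10 replicate 4, and 1, Gnb1 intron 5, without P10 replicate 1.

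P28 against P10 gave no call, and the Gnat1 peaks differed from the others in sign on the deposited library scales but not after scaling to the reads inside peaks, where 6 of the 7 values were positive. None of the 7 passed limma's test, against 20.7% of all peaks lower and 1.29% higher. An unadjusted p under 0.05 by limma was found for 1 of the 7 and for 3323 of the 8996 peaks. limma-voom called 0 members, against 1975 of all peaks lower and 85 higher. The Gnat1 promoter had 70.1 ± 12.0 RPKM at P28 and 60.5 ± 17.4 at P10 (0.23 ± 0.58, adjusted p = 0.80), and the intragenic peak 25.3 ± 0.243 at P28 and 20.1 ± 6.54 at P10 (0.35 ± 0.53, adjusted p = 0.66). The Gnb1 internal promoter had 75.2 ± 5.30 at P28 and 145 ± 34.0 at P10 (-0.92 ± 0.56, adjusted p = 0.23). Intron 5, both first-intron peaks and Gngt1 gave -0.76, -1.18, -0.61 and -0.48. Both P28 libraries were below both P10 libraries in 5 of the 7 peaks, as in 61.7% of all peaks, and above them in 1, the Gnat1 intragenic peak, as in 10.1%. The median of the 7 was -0.61, against -0.69 over all peaks. With scaling to the reads inside peaks the sign turned at the Gnb1 internal promoter, Gnb1 intron 5, the weak first-intron peak and Gngt1, to 0.032, 0.17, 0.24 and 0.33. In a fit of P10 and P28 libraries alone, the Gnb1 internal promoter and first-intron peaks were called lower at P28, as were 3067 of all 8996 peaks. Without P4 replicate 3 or without P4 replicate 4 their log2 changes stayed at -0.92 and -1.18.

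P28 against P2 spanned the whole series. Signal rose at 5 of the 7 transducin peaks, both of Gnat1 and 3 of Gnb1, and fell at none, against 9.64% of all peaks higher and 3% lower. The P28 list held 4 of the 7 and the P2 list 1, so the choice of peaks partly favoured a rise here too. Both P28 libraries were above both P2 libraries in all 7, as in 52.5% of all peaks, against 11.8% with both below. The Gnat1 promoter had 70.1 ± 12.0 RPKM at P28 and 1.77 ± 1.42 at P2, a log2 change of 4.78 ± 0.58 (adjusted p = 5.5e-05). In scaled reads this was a ratio of 35.5 (exact 95% interval 20.5 to 67.1), from 439 reads at P28 and 13 at P2. Gnb1 intron 5 had 20.0 ± 0.413 at P28 and 0.898 ± 0.638 at P2 (3.51 ± 0.55, adjusted p = 0.00028), with 71 reads at P28 and 3 at P2, a ratio of 24.9 (8.17 to 123). The Gnat1 intragenic peak had 25.3 ± 0.243 at P28 and 2.42 ± 0.477 at P2 (2.95 ± 0.53, adjusted p = 0.00088), and the Gnb1 internal promoter 75.2 ± 5.30 at P28 and 17.6 ± 3.26 at P2 (2.05 ± 0.56, adjusted p = 0.018). The weak first-intron peak had 12 reads at P28 and 0 at P2 (adjusted p = 0.00028). With the P2 reads set to a floor of 3, its ratio of scaled reads was 4.20, which ignores counting error in the 12 reads. The median log2 change of the 7 was 2.85, or 2.07 with that peak at its floored ratio, against 0.57 over all peaks. The Gnb1 first-intron peak (1.55 ± 0.54, adjusted p = 0.056) and Gngt1 (0.93 ± 0.46, adjusted p = 0.17) did not pass. Both Gnat1 peaks and Gnb1 intron 5 passed in all 17 alternative settings, and 5 peaks were called after centring and after scaling to the reads inside peaks, while the call of the Gnb1 internal promoter was lost without any single P2 or P28 library (adjusted p 0.06 to 0.11) and with a pseudocount of 0.1 (adjusted p = 0.061).

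**Figure D3:**
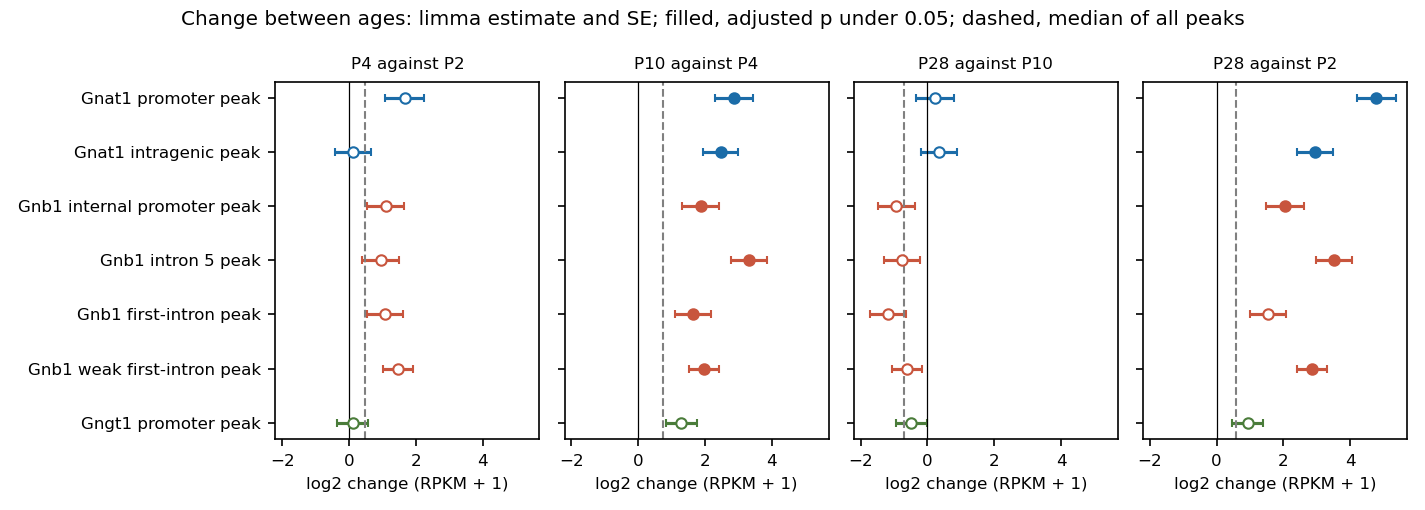
Log2 change of RPKM + 1 at the 7 transducin peaks in 4 comparisons of ages, with the later age over the earlier one; points are limma estimates, bars 1 SE, and filled points have an adjusted p under 0.05. The dashed line is the median of all 8996 peaks; 6 points are filled for P10 against P4 and 5 for P28 against P2, and none in the other panels.

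Ratios between member peaks inside a library do not depend on how libraries were scaled. Gnat1 promoter signal relative to the Gnb1 internal promoter was 0.182 and 0.0383 in the P2 libraries, 0.181 and 0.189 in the P4 libraries, 0.430 and 0.397 in the P10 libraries, and 0.863 and 0.995 in the P28 libraries. The ratio was higher in both P28 libraries than in both P10 libraries, and higher in these than in all P2 and P4 libraries. Gnb1 intron 5 relative to the internal promoter was 0.0293 and 0.0679 in the P2 libraries, 0.0755 and 0.0572 in the P4 libraries, 0.290 and 0.200 in the P10 libraries, and 0.284 and 0.250 in the P28 libraries, so P10 and P28 overlapped and both lay above P2 and P4. By contrast the first-intron peak relative to the internal promoter stayed between 0.0812 and 0.124 in all 8 libraries. The first-intron peak held 5 and 4 reads in the P2 libraries, so a constant ratio cannot be read from these values. The P2 ratios of the Gnat1 promoter (11 and 2 reads) and of intron 5 (1 and 2 reads) also carry large counting error. Gngt1 relative to the Gnat1 promoter was 0.728 and 2.40 in the P2 libraries and 0.471 and 0.195 in the P4 libraries. It was 0.111 and 0.116 in the P10 libraries, and 0.0805 and 0.0534 in the P28 libraries. The Gngt1 peak held 16 and 14 reads at P10 and 10 and 8 at P28, so counting error on these ratios is large. With 2 libraries against 2, the smallest p an exact two-sided permutation test can give is 0.333, so these ratios are descriptions.

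**Figure D4:**
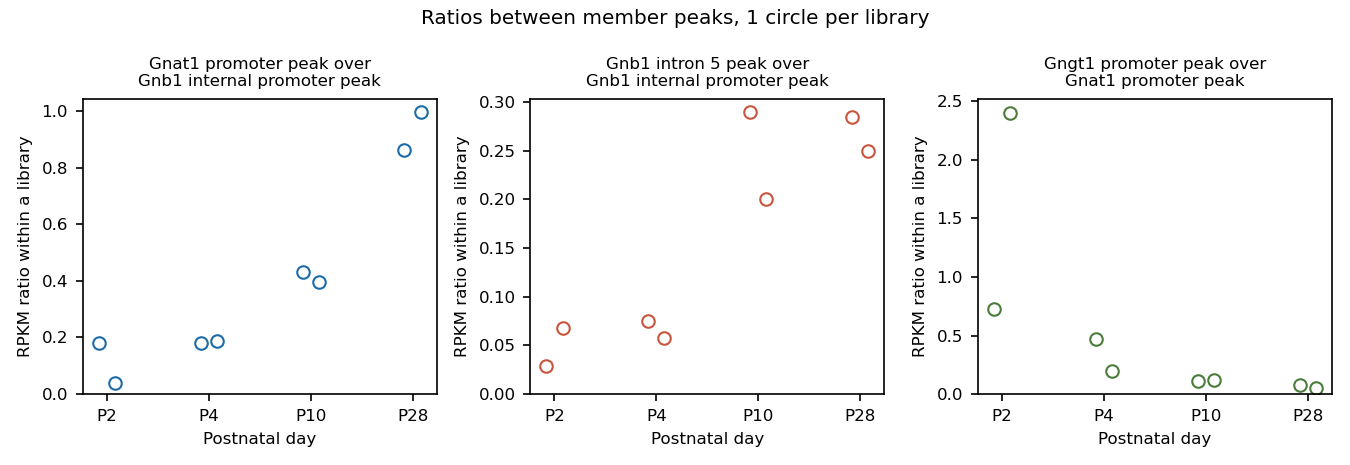
Ratio of RPKM between pairs of transducin peaks within each library (linear axes starting at 0), with 1 open circle per library and 2 libraries per age. The Gnat1 promoter reached 0.863 and 0.995 of the Gnb1 internal promoter at P28, against 0.430 and 0.397 at P10.

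The other genes of the rod cascade were examined through the strongest peak of each gene. Of 23 listed phototransduction and outer segment genes, 21 had a peak; for P10 against P4, 14 rose and 0 fell, against 13.2% of 6860 genes higher and 1.4% lower, with a median log2 change of 1.63 against 0.69 over all genes. After centring, 6 of the 21 rose, and after scaling to the reads inside peaks 3 did, with all 21 values positive under both. Of all 8996 peaks, 259 were called higher after centring and 100 after scaling to the reads inside peaks. Peaks were linked to genes by annotation alone, and those of Pde6a and Aipl1 lay 50876 and 39929 bp from the annotated start. Among the phosphodiesterase subunit genes Pde6a, Pde6b and Pde6g rose by 1.76, 2.26 and 2.40, and the channel subunit genes Cnga1 and Cngb1 by 2.23 and 1.63. Of the shut-off and regulator genes, the calcium sensor gene Rcvrn rose by 3.32, Guca1b, which encodes a guanylate cyclase activator, by 1.56, and Rgs9bp and Gnb5, partners of the GTPase-activating protein that turns off the transducin alpha subunit, by 2.81 and 2.45. Phosducin (Pdc), which binds the transducin beta-gamma pair, had 136 ± 23.1 RPKM at P10 and 47.5 ± 20.8 at P4 (1.56 ± 0.54, adjusted p = 0.047). Unc119, whose protein binds the lipid-modified transducin alpha subunit, rose by 1.84, and Aipl1, a chaperone gene of the phosphodiesterase, Rdh12, a retinal reductase gene, and the disc rim gene Prph2 by 1.45, 2.37 and 2.29. For P4 against P2 none of the 21 passed limma's test or limma-voom. An unadjusted p under 0.05 by limma was found for 5 of them and for 1365 of all 8996 peaks. For P28 against P10, 0 rose and 1 fell, Unc119, with 21.9 ± 0.856 RPKM at P28 and 67.0 ± 17.5 at P10 (-1.55 ± 0.56, adjusted p = 0.048), against 1.33% of genes higher and 19% lower; that call was lost under both other scalings. For P28 against P2, 11 rose and 0 fell, against 9.39% of genes higher and 3.05% lower. After centring 8 rose, as did 294 of all 8996 peaks, and after scaling to the reads inside peaks 9 rose, as did 391 of all peaks.

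The cone transducin genes Gnat2, Gnb3 and Gngt2 were the only ones of 8 listed cone counterparts with a peak. Gnat2, the cone alpha subunit gene, rose at P10 against P4, with 11.7 ± 0.213 RPKM at P10 and 3.21 ± 2.46 at P4 (1.73 ± 0.51, adjusted p = 0.024), a call that was lost after centring and after scaling to the reads inside peaks. Gnb3, the cone beta subunit gene, fell to 3.25 ± 0.127 RPKM at P28, against 19.5 ± 7.23 at P10 (-2.23 ± 0.55, adjusted p = 0.007), a call kept after centring and lost after scaling to the reads inside peaks. Gngt2, the cone gamma subunit gene, had 7.53 ± 1.47 at P28 and 13.0 ± 3.27 at P10 (-0.71 ± 0.53, adjusted p = 0.34). The difference between rod and cone subunit genes was not tested.

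Heterotrimeric G protein genes outside phototransduction had peaks at 6 of 14 alpha and 4 of 12 beta or gamma genes. For P10 against P4 none passed limma's test, against 13.2% of 6860 genes higher and 1.4% lower. None passed limma-voom, against 1933 of all 8996 peaks higher and 140 lower. By limma, 0 alpha and 2 beta or gamma genes had an unadjusted p under 0.05, as did 3143 of all peaks. After centring 1, Gng12, was called lower, as were 293 of all peaks. For P28 against P10, 3 of the 6 alpha genes fell, against 19% of genes lower and 1.33% higher: Gnai1 (-2.44, adjusted p = 0.0023), Gna11 (-1.88, adjusted p = 0.025) and Gna12 (-1.59, adjusted p = 0.048). Of the 4 beta and gamma genes 2 fell: Gnb2, with 4.01 ± 0.403 RPKM at P28 and 38.8 ± 1.80 at P10 (-2.99 ± 0.55, adjusted p = 0.00089), and Gng10, with 8.39 ± 0.188 at P28 and 37.2 ± 1.59 at P10 (-2.02 ± 0.56, adjusted p = 0.014). Of these 5, Gnai1, Gnb2 and Gng10 were also called after centring, and Gnb2 alone after scaling to the reads inside peaks.

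The peaks of other genes whose signal ran most like that of each member were found by Pearson r of log2(RPKM + 1) over the 8 libraries, among 3871 to 3873 candidate peaks of other genes; libraries share depth and scale, and r is given as a description. For the Gnat1 promoter these included peaks at Calcoco1 (0.985), Pde6a (0.985), Grk1 (0.983) and Esrrb (0.983). The Pde6a and Grk1 peaks here, at -2734 and -23 bp from the annotated start, are not the strongest peaks of these genes used above. For the Gnb1 internal promoter they included Fam57b (0.995), Rp1 (0.993), Pdc (0.993) and Galr3 (0.992), and for Gngt1 they were at Rbm20 (0.989), Ankrd33b (0.987), Gpr152 (0.986), Ercc1 (0.984) and Pkm (0.982). Between the 7 transducin peaks r ran from 0.768 to 0.985.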

How the data were processed

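CUT&RUN libraries were made with a ThruPLEX kit, per the labels' protocols. The submitters' processing notes name MACS2 2.2.5, Bowtie2 2.3.5.1, Trimmomatic 0.38, bedtools 2.29.0, Picard 2.20.8 and SAMtools 1.9 with the builds GRCm38.p6 and ASM584v2, without roles. How replicates entered the peak lists, and whether the spike-in was used, is not given in these sources. The deposited quantitation table holds RPKM; its header does not name the unit. The signal and score in the deposited lists are the authors' own values, and their p and q columns held no values.

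The deposited RPKM of a column used widths shifted by 39 rows with each further column, so that only the first column carried the correct widths. Back-calculation gave whole reads for 100% of values (tolerance 0.001), and RPKM was recomputed from them with the correct widths and unchanged library scales (5.26e+06 to 8.01e+06). As deposited, the Gnat1 promoter read 330 RPKM in P28 replicate 4, against 78.6 after rebuilding. Values were tested as log2(RPKM + 1), a scale that understates the change of weak peaks, with limma 3.58.1 in R 4.3.3 (trend and robust empirical Bayes, 1 fit of the 8 libraries by age without a filter, leaving 4 residual degrees of freedom), with Benjamini-Hochberg adjustment over 8996 peaks and a call at an adjusted p under 0.05. The procedure was tried on simulated reads with changes at P10 in peaks at or above the median mean. It called 64 of 100 peaks changed 4-fold and 98 of 100 changed 8-fold, with 4 false calls. The simulated libraries did not differ in their share of reads inside peaks, unlike the libraries here. A count model was not the main test because the values are normalized. Read ratios have exact 95% intervals; 0 reads were set to a floor of 3 over the libraries of an age. Overlap with a list peak means at least 1 bp. Ratios and summaries used pandas 2.3.3, SciPy 1.17.1 and NumPy 2.4.6 in Python 3.11.15, and figures Matplotlib 3.10.9. Promoter windows are from RefSeq (GRCm38.p6) and matched Gnb1 and Gngt1 of the 3 genes; Gnat1 had no entry.

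The genes, lists and rules were chosen with earlier results of these data known. Beside all member peaks, the text names list genes that passed P10 against P4 or P28 against P10, the cone transducin genes, and the 5 peaks most like each member's strongest peak (protein-coding genes, 1 peak per gene, start site within 50 kb, mean at or above the median). Genes chosen by this last rule that are not named in the text are not reported here. Alternatives were other pseudocounts, a filter on low values, other scalings, the values as deposited, limma-voom, the 2 ages alone, a replicate block and leaving out each library.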

Additional observations from a re-analysis of the deposited data

How the results depend on the processing

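Counts of called transducin peaks were compared across alternative settings. For P10 against P4, where 6 peaks were called, the count was 0 with a pseudocount of 0.1, 3 after centring, 3 after scaling to the reads inside peaks, 2 with values as deposited and 0 with a replicate block. Calls over all 8996 peaks fell as well: 1405 were higher at P10 in the main fit, against 5, 259, 100, 514 and 153 in these settings, in that order. Leaving out each library in turn gave 1 to 7 calls for P10 against P4, 0 to 3 for P4 against P2 and 0 to 2 for P28 against P10. For P28 against P10 the count of 0 became 1 with a pseudocount of 5 and 2 in the fit of these 2 ages alone. Of all 8996 peaks, 2846 and 3067 were called lower in these fits, against 1858 in the main fit. The counts for P28 against P2 ran from 4 to 6, those of the any-age test from 5 to 7, and the overlaps with deposited lists from 10 to 15, all within 1.5 times of the reported count. The cause of these differences was not tested.

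Signs turned at single peaks, none of them called. For P4 against P2 the Gnat1 intragenic peak came to -0.35 after centring, -0.38 after scaling to reads inside peaks, -0.022 without P2 replicate 4 and -0.037 without P4 replicate 4 (-0.037 to 0.278 over all libraries left out), and Gngt1 to -0.36 and -0.35 under those 2 scalings. For P28 against P10 scaling to reads inside peaks gave 0.032, 0.17, 0.24 and 0.33 at the Gnb1 internal promoter, Gnb1 intron 5, the weak first-intron peak and Gngt1. Gngt1 came to 0.13 after centring and 0.68 with values as deposited, the Gnat1 intragenic peak to -0.33 with values as deposited, and the Gnat1 promoter to -0.064 without P10 replicate 4 (-0.064 to 0.522 over all libraries left out). Of the other values for single peaks, 495 kept sign and side of the threshold, 55 lost the call and 19 gained it.

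Replicate numbers do not mark shared animals in the labels, and same-numbered libraries deviated together weakly (correlations of 0.0853, 0.05 and 0.0291). The libraries were replicates 1 and 4 at P10 and replicates 3 and 4 at the other ages. In the replicate block, P10 therefore rested on replicate 4 alone. The replicate block took the any-age count to 5 and left P28 against P2 at 5, and P4 against P2 and P28 against P10 at 0. The filter on low values removed Gngt1. limma-voom with TMM scaling was not run; limma-voom with the deposited scales was chosen after seeing the data. Depth limits Gngt1, the Gnat1 intragenic peak and the intronic Gnb1 peaks at P2 and P4, which had few reads.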

Other observations

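Other genes near the transducin genes also had peaks. Within 50 kb of Gnat1 lay 2 peaks at Slc38a3, 1 at Sema3f and 1 assigned to Rbm5, and within 50 kb of Gnb1 lay 1 at Nadk. The intergenic peak assigned to Rbm5, chr9:107729295-107729570, lay 49661 bp from Gnat1 and averaged 2.41, 4.49, 27.2 and 11.8 RPKM at P2, P4, P10 and P28. It rose at P10 against P4 (log2 change 2.42, adjusted p = 0.0051 by limma) and at P28 against P2 (1.98, adjusted p = 0.02), whereas the Slc38a3, Sema3f and Nadk peaks gave no call at any of the 4 comparisons. No peak of another gene lay within 50 kb of Gngt1.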
